A study of Homo sapiens with 5 samples.

Results

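The genes described here are 10 subunits of the ionotropic glutamate receptors, the ion channels that open when glutamate binds: 4 AMPA receptor subunits (GRIA1, GRIA2, GRIA3 and GRIA4), 3 NMDA receptor subunits (GRIN1, GRIN2A and GRIN2B) and 3 kainate receptor subunits (GRIK1, GRIK2 and GRIK3). They were taken by symbol, and all 10 were listed once in each of the 8 libraries, among 36601 genes at D0 to D10 and 33538 genes at D22 to D26. The libraries are single-cell RNA-seq of WA09 cells, an established wild-type human embryonic stem cell line, on their way to neurons that make gonadotropin-releasing hormone (GnRH), the peptide that drives the reproductive axis. D0 cells were undifferentiated. Cells called dSMADi received dual SMAD inhibition (dorsomorphin and SB431542) up to D10, and cells called XAV939 received the Wnt inhibitor XAV939 (10 µM) as well. The cells of D22, D24 and D26 received dual SMAD inhibition without XAV939, then FGF8, then the Notch inhibitor DAPT, and the study stored cells frozen in the FGF8 stage.

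Each condition is 1 set of cells of 1 line, called a library here, so no difference below has a replicate check and no p-value is given. The D0 to D10 sets were parts of 1 droplet run, told apart by sample tags. Levels are counts of unique molecular identifiers (UMIs, each tagging 1 captured RNA molecule) per 1000000 UMIs of all cells in a group (CPM), with an exact Poisson 95% interval in brackets, and ratios carry an exact binomial interval. Both cover counting error only, treat UMIs as independent and say nothing of the spread between cultures. The 3′ assay reads 1 end of each RNA, so UMIs were not divided by gene length, and any order of genes is an order of captured UMIs. A UMI level is also not a level of protein or of current.

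At D24 and D26 the cells were split by 3 measures. GNRH1-high cells held GNRH1 at 3000 CPM or more of the cell's own UMIs. DLX-positive cells held at least 3 UMIs of DLX1, DLX2 and DLX5 together, homeobox genes of the forebrain GABAergic lineage. TBR1/PPP1R17 cells held at least 3 UMIs of TBR1 and PPP1R17 together and were neither GNRH1-high nor DLX-positive. Cells that met the last limit and one of the other two were set apart as two-lineage cells, 46 at D24 and 289 at D26. This left 312 GNRH1-high cells at D24 (193 of them DLX-positive) and 828 at D26 (636 DLX-positive), 133 and 591 DLX-positive cells without high GNRH1, 5345 and 7462 TBR1/PPP1R17 cells, and 3271 and 1886 cells in none of these classes.

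The cells kept numbered 40513, from 1009 at D0 to 11056 at D26, with median depths of 24291 to 69455 UMIs per cell at D0 to D10 and 7180 to 12179 at D22 to D26. The D0 to D10 conditions shared 1 tagged droplet run and no cell barcode. Other pairs of libraries shared 1 to 37 barcodes, at most 0.540% of either. D22, labelled neuron, held STMN2 at 1294 CPM and 2357 of 9523 cells with at least 3 UMIs of MKI67 and TOP2A, genes of dividing cells. TUBB3, 1 of the 6 neuron markers checked, was higher at D0 (204 CPM) than at D26 in any class above (47.1 to 50.3 CPM in the DLX-positive GNRH1-low, GNRH1-high and TBR1/PPP1R17 cells), while STMN2, DCX, MAP2, SYT1 and SNAP25 were lower at D0. At D26, GAD2 stood at 173 and 288 CPM in GNRH1-high and DLX-positive GNRH1-low cells and 1.62 in TBR1/PPP1R17 cells, and SLC17A6, a vesicular glutamate transporter, at 6.399, 3.12 and 67.3. SLC17A7 and NEUROD6, markers of cortical glutamatergic neurons, had 0 UMIs in all 3. GFAP and AQP4, markers of astrocytes, were at or below 0.101.

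AMPA receptors carry most fast excitatory current in the brain and are tetramers of the GRIA products. A GRIA2 subunit that has been edited at the Q/R site of its pore loop makes the channel nearly impermeable to calcium, so the share of GRIA2 among the 4 is a much-followed property of a neuron. NMDA receptors need the GRIN1 product together with GRIN2 subunits, of which GRIN2B is the early form and GRIN2A the later one in forebrain. Kainate receptors are built from the products of GRIK1 to GRIK3, which can combine with those of GRIK4 or GRIK5. Glutamate acting on these receptor families is one of the main excitatory inputs to GnRH neurons.

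The pore-loop stretches of the AMPA subunits are shown because GRIA2 differs from its relatives through editing of a codon that all 4 share in the genome. Each is 30 coding bases of the GENCODE 44 MANE Select transcript read from GRCh38, 5′ to 3′ on the gene's strand, with the Q/R codon, which codes for glutamine, in capitals.
GRIA1: ctgggagccttcatgCAGcaaggatgtgac
GRIA2: ttgggtgcctttatgCAGcaaggatgcgat
GRIA3: ttgggtgcctttatgCAGcaaggatgtgat
GRIA4: ctgggtgcttttatgCAGcaaggatgtgac
GRIN1: tggggcgtcctgctcAACtccggcatcggg
In GRIN1 the capitals mark the asparagine codon of the pore loop. The AMPA stretches lie in exon 11 of 16 of GRIA1 (chr5:153706027-153706056, plus strand), exon 11 of 16 of GRIA2 (chr4:157336707-157336736, plus), exon 11 of 16 of GRIA3 (chrX:123417738-123417767, plus) and exon 12 of 17 of GRIA4 (chr11:105924729-105924758, plus). That of GRIN1 (chr9:137162483-137162512, plus) lies in exon 13 of 20. The GRIA3 stretch shared 29 of its 30 bases with GRIA2, that of GRIA4 26 and that of GRIA1 25. The kainate genes also carry a glutamine codon here, in a stretch that spans an exon junction and shares 20 or 21 of 30 bases with GRIA2. These codons are 50.4 kb (GRIA2) to 108 kb (GRIA1) from the 3′ end of the AMPA genes in the genome, introns included. The assay captures that end of the RNA. Only UMI counts per gene and cell were read, so editing was not measured.

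RefSeq promoter windows of 300 bases around a start site were held for 7 of the 10 genes, 15 windows in all. They were searched on both strands for TAATTA, the core that many homeodomain proteins such as the DLX factors prefer, and for TTCAGCACC, the left part of the RE1 element bound by the repressor REST. TAATTA was in 0 of the 15 windows and in 4.84% of all 35116. TTCAGCACC was in 1 of the 15, a GRIA2 window, and in 0.376% of all. The 49 bases around it are shown because GRIA2 is the subunit that was at 0 UMIs at D0 and D5 (chr4:157220380-157220428, GRCh38.p14, plus strand, with the motif of the opposite strand in capitals).
GRIA2: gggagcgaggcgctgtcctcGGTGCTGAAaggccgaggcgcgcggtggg
A match of letters says nothing of binding in these cells.

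GRIA2, the subunit that limits calcium entry, was the member with the widest range. It had 0 UMIs at D0 and in both D5 conditions, where up to 0.0486 CPM would still allow 0 UMIs, then 8 UMIs (0.102 CPM) at D10_dSMADi and 26 (0.448) at D10_XAV939. It stood at 1.13 CPM [0.959, 1.33] at D22, 18.9 [17.93, 19.98] at D24 and 104 [102, 106] at D26, and the intervals of D10_XAV939 and of these 3 days did not overlap one another. The share of cells with a GRIA2 UMI was 1.12% at D22, 11.3% at D24 and 47.6% at D26, at median depths of 12179, 7180 and 8485 UMIs. It was 0.170% in the dividing D22 cells, at a median depth of 15771.

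GRIA1 followed a shallower course, at 0.435 CPM at D0, 0.740 and 0.715 at D5, 3.09 and 2.43 at D10 (dSMADi first in each pair), 3.58 at D22, 14.7 at D24 and 39.6 at D26. GRIA4 was high at both ends. It stood at 17.1 CPM [16.2, 18.1] at D0, with 1299 UMIs in 649 of 1009 stem cells and at most 10 in any cell, lay between 0.989 and 3.89 at D5 to D22, and stood at 6.101 at D24 and 42.6 at D26. GRIA3, unlike its relatives, was not highest in the late neurons. It was the most counted of the AMPA genes at D5, D10 and D22 (4.23 to 11.4 CPM) and lay at 5.39 at D24 and 8.12 at D26.

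The make-up of the AMPA UMIs differed between the libraries. GRIA4 gave 83.6% of them at D0 (95% Clopper-Pearson interval 81.7 to 85.5), GRIA3 80.0% at D5_dSMADi and 69.0% at D5_XAV939, and GRIA3 again 66.7% at D22. GRIA2 gave 6.63% at D22, 42.0% at D24 and 53.6% (52.9 to 54.3) at D26. The most counted AMPA gene was thus GRIA4 in stem cells, GRIA3 from D5 to D22 and GRIA2 at D24 and D26. These libraries come from 2 droplet workflows with different enzymes to free the cells (Accutase and papain by the study's methods, papain for all by the labels), Cell Ranger versions and gene lists, D0 to D10 in one and D22 to D26 in the other, which cannot be told apart from the days.

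Among the NMDA subunits, GRIN1, the subunit every NMDA receptor needs, was low throughout. It had 31 UMIs (0.408 CPM) at D0, 1 UMI in each of the 4 D5 and D10 conditions, and 0.0920, 0.570 and 0.613 CPM at D22, D24 and D26. GRIN2A, the later GRIN2 form, was highest at D0 (2.03 CPM) and at 0.0997 to 0.221 from D22 on. GRIN2B, the early form, was at 2.23 at D0, 1.73 and 1.36 at D5, 3.67 at D10_dSMADi against 0.499 at D10_XAV939, 0.667 at D22, 0.399 at D24 and 5.90 [5.434, 6.399] at D26. At D26 GRIN2B therefore stood above GRIN1 in captured UMIs, 587 against 61. The NMDA genes GRIN2D and GRIN3A were at 3.75 and 2.56 CPM at D26.

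Of the kainate subunits, GRIK2 had the most UMIs in every library except D10_XAV939, where GRIK1 had 31 against its 16. It stood at 2.03 CPM at D0, 0.276 to 0.317 at D5 and D10, 4.91 at D22, 17.7 at D24 and 38.1 at D26. GRIK3 was between 0.0381 and 0.290 up to D22, then 0.656 and 2.71, and GRIK1 was at 0.0627 to 0.534 up to D22, then 1.27 and 1.20. GRIK1 lies on the minus strand of chromosome 21 (29536933 to 29940033) and BACH1, on the plus strand, covers its 3′ end. No other annotated gene covered the 3′ end of a member. GRIK5, a possible partner subunit of these kainate genes, was detected in every library, from 3.62 at D10_XAV939 to 25.1 CPM at D26.

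**Figure D1:**
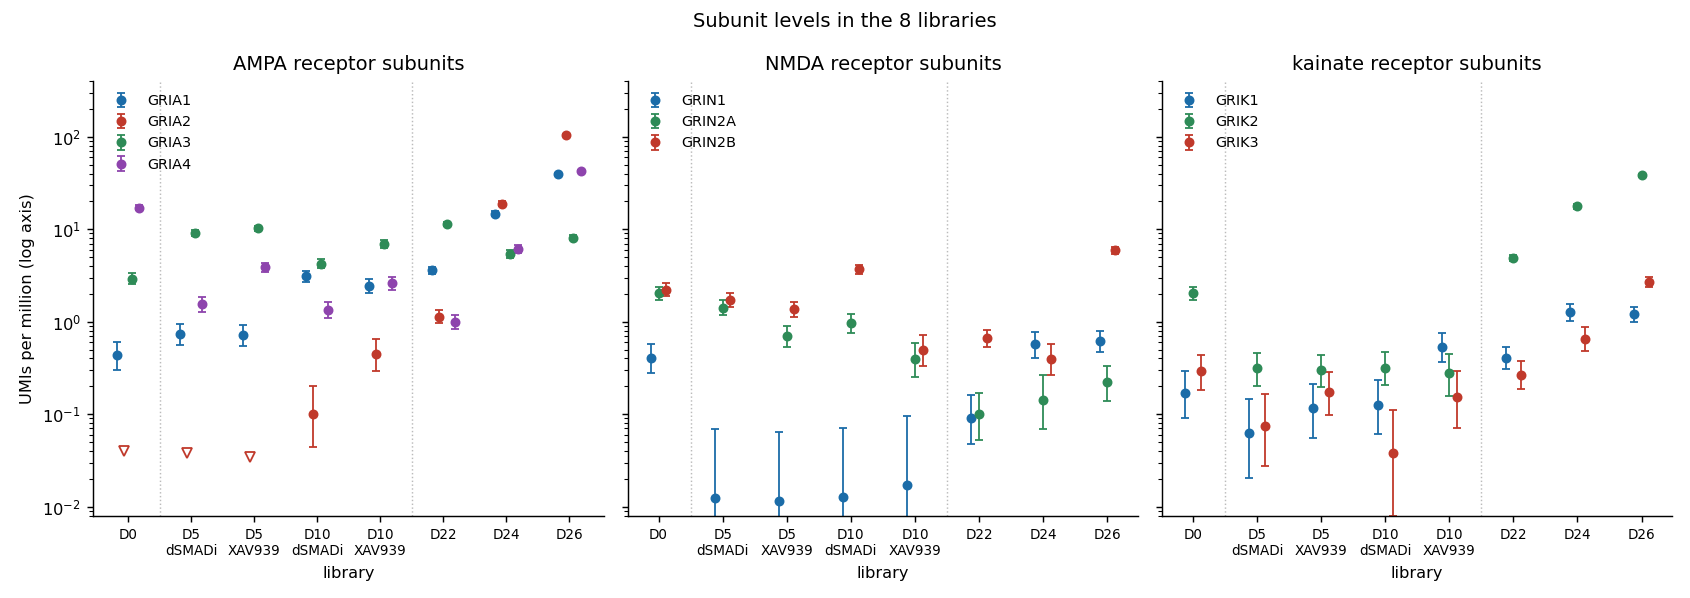
CPM (log axis) of the 10 subunits in the 8 libraries, 1 panel per receptor family. Points are levels over all kept cells of a library, bars the exact Poisson 95% interval, open triangles the level of 3 UMIs where a gene had 0, and dotted lines separate D0, the other tagged conditions and the D22 to D26 libraries. GRIA2 goes from 1.13 at D22 to 104 at D26, GRIA4 is high at D0 (17.1) and D26 (42.6), and GRIN1 stays at or below 0.613.

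**Figure D2:**
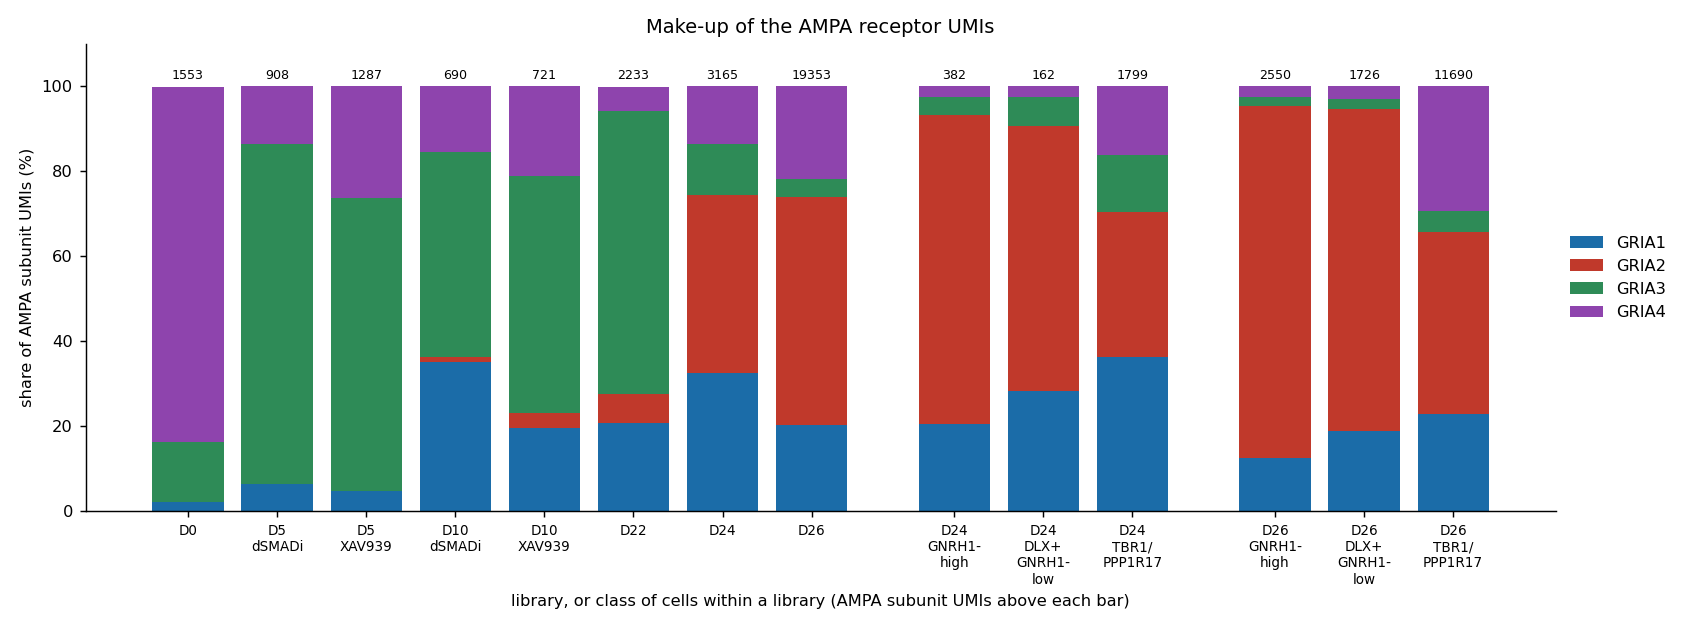
Share of AMPA subunit UMIs (percent) taken by GRIA1, GRIA2, GRIA3 and GRIA4 in each library and, at D24 and D26, in 3 classes of cells. The number above a bar is the AMPA UMIs it rests on; GRIA4 fills most of D0 (83.6%), GRIA3 most of D5_dSMADi (80.0%) and D22 (66.7%), and GRIA2 most of the GNRH1-high cells at D26 (82.7%).

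Inhibiting Wnt signalling from the start asks whether early patterning moves these genes. A gene was called higher or lower when it had at least 30 UMIs over both libraries and its level differed at least 2-fold. At D5, 6 members had enough UMIs, of which 1 was higher with XAV939 and 1 lower, against 2.22% and 2.13% of all 17237 genes measured. GRIA4 was the higher, at 3.89 against 1.54 CPM (log2 ratio 1.33 [1.03, 1.64]), and GRIN2A the lower, at 0.692 against 1.42 (-1.04 [-1.51, -0.57], and -0.86 without the 5% of cells with the most UMIs). The other 4 measured members (GRIA1, GRIA3, GRIN2B and GRIK2) had log2 ratios of -0.35 to 0.17. The members' median log2 ratio was -0.06 and that of all genes 0.05.

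At D10, 8 members were measured, 2 of them higher and 2 lower, against 2.96% and 5.44% of 17364 genes. GRIN2B, the early NMDA subunit, was 7.35-fold lower with XAV939, with 29 UMIs in 26 of 2168 cells against 289 UMIs in 210 of 2416 cells (-2.88 [-3.48, -2.32]). The 10 richest of the dSMADi cells held 17.0% of its UMIs and 1 cell held 19. After thinning each cell to 1500 UMIs the shares of cells with a GRIN2B UMI were 0.138% and 0.538%, with intervals that overlap. GRIN2A was again lower with XAV939 (0.396 against 0.965, -1.28 [-2.03, -0.60]). GRIA4 was at 2.62 against 1.35 CPM, short of the 2-fold limit at D10 (0.96 [0.59, 1.33]), and GRIA3 at 6.92 against 4.23 (0.71 [0.50, 0.93]).

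The 2 higher members at D10 rest on few UMIs. GRIA2 had 26 against 8 (2.14 [0.95, 3.49]), and 10 cells held 65.4% of the 26. GRIK1 had 31 against 10 (2.07 [1.01, 3.27]). STMN2, a marker of young neurons, was at 113 CPM with XAV939 and 20.2 without. Its part in these differences was not tested.

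**Figure D3:**
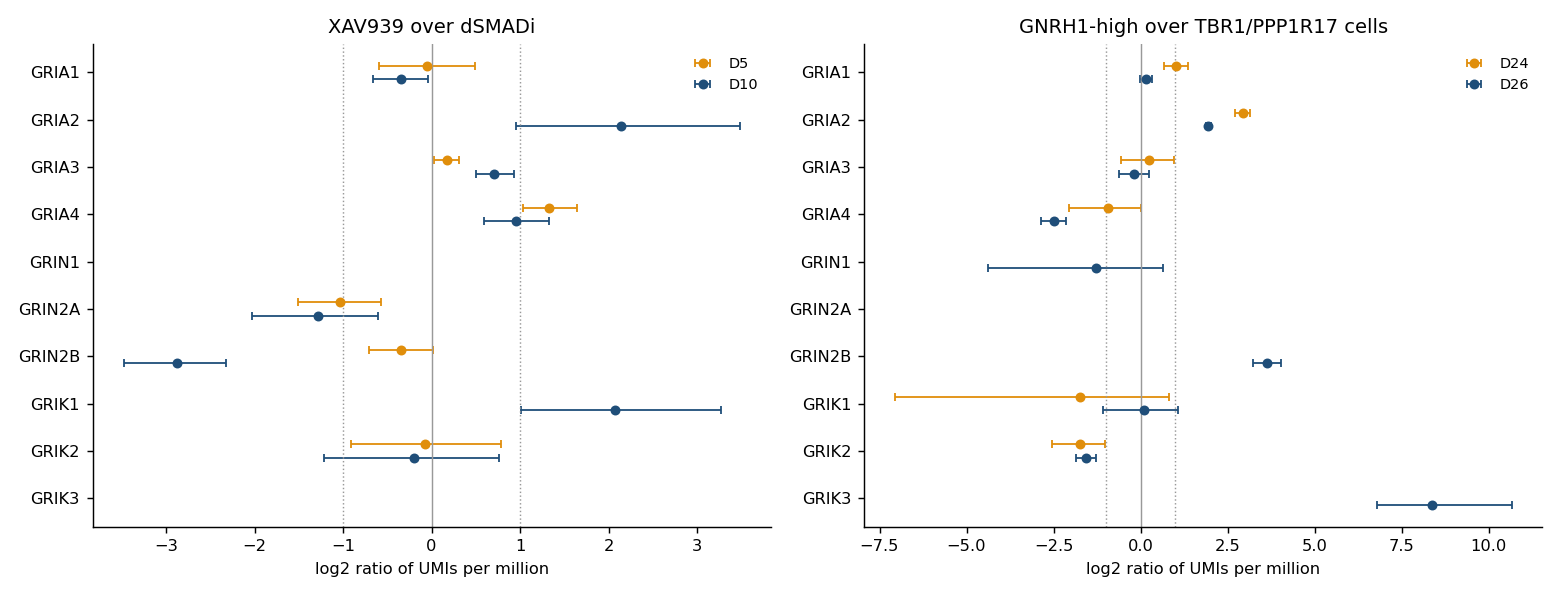
Log2 ratios of CPM with exact binomial 95% intervals, for XAV939 over dSMADi at D5 and D10 (left) and for GNRH1-high over TBR1/PPP1R17 cells at D24 and D26 (right). Genes with fewer than 30 UMIs over both groups have no point, and dotted lines mark 2-fold. GRIN2B lies at -2.88 in the D10 comparison on the left and at 3.63 in the D26 comparison on the right.

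From D22 to D24, 7 of 9 measured members were at least 2-fold higher and 1 lower, against 13.4% and 17.5% of 17343 genes. The highest ratio was that of GRIA2 (4.06 [3.81, 4.32]), followed by GRIA4 and GRIN1 (2.63 each), GRIA1 (2.04), GRIK2 (1.84), GRIK1 (1.64) and GRIK3 (1.29). GRIA3 was the member called lower (-1.08 [-1.25, -0.92], from 11.4 to 5.39 CPM). GRIN2B was at -0.74 [-1.41, -0.11]. The median over the members was 1.84 and over all genes -0.11. These whole-library ratios alone cannot tell a change in the share of a cell type from a change in RNA per cell. TBR1/PPP1R17 cells of D22 held GRIK2 at 23.7 CPM [20.7, 27.0]. At D22, unlike D24, dividing cells were left out and no GNRH1 limit was used. Those of D24 held GRIK2 at 20.6 [19.24, 21.96]. Between these groups GRIA3 went from 17.1 to 5.54 and GRIA2 from 6.80 to 14.1. GRIA1 went from 10.78 to 15.0 and GRIA4 from 3.978 to 6.66. How far class shares made up the library ratios was not tested. The dividing-cell genes MKI67 and TOP2A stood at 146 and 396 CPM at D22 against 4.01 and 14.2 at D24. Their part in these ratios was not tested.

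Within D22 the cells were split by whether they divided, a comparison chosen after the data were seen. No GNRH1 limit was used in the D22 classes. GRIA2 was at 0.170 CPM in the 2357 dividing cells (7 UMIs), 6.19 in the 538 DLX-positive cells and 6.80 in the 751 TBR1/PPP1R17 cells that were not dividing. The first lay below both others (log2 5.19 [4.02, 6.59] and 5.32 [4.20, 6.70]), and the intervals of the last pair overlapped. The DLX-positive level rests on few cells: 10 of them held 78.6% of the 42 UMIs, and 3.53% of these cells (2.14 to 5.46) had a GRIA2 UMI against 7.32% (5.56 to 9.43) of the TBR1/PPP1R17 cells. GRIK2 already separated the lineages at this day, at 1.55, 2.65 and 23.7 CPM [20.7, 27.0]. GRIA3 was found in all of them, at 5.04, 9.73 and 17.1, and at 14.5 in the 5868 cells in none of these classes.

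From D24 to D26, 6 of the 10 members were at least 2-fold higher and 0 lower, against 10.6% and 5.40% of 16784 genes. The largest difference was that of GRIN2B, from 28 UMIs to 587 (3.89 [3.34, 4.49]). GRIA4 followed (2.80), then GRIA2 (2.46), GRIK3 (2.04), GRIA1 (1.43) and GRIK2 (1.11). GRIA3 (0.59 [0.41, 0.77]), GRIN1, GRIN2A and GRIK1 stayed within 2-fold, the last 3 with intervals that hold 0. The median over the members was 1.27 and over all genes 0.30.

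Because classes were defined at both days, the same step could be read inside a class, a comparison chosen after the data were seen. In TBR1/PPP1R17 cells GRIA4 went from 6.66 to 49.6 CPM (2.89 [2.72, 3.07]), GRIA2 from 14.1 to 72.7 (2.36 [2.24, 2.49]), GRIA1 from 15.0 to 38.6 (1.36) and GRIK2 from 20.6 to 43.1 (1.07). In GNRH1-high cells GRIA2 went from 108 to 281 (1.39 [1.20, 1.57]) and GRIA1 from 30.7 to 42.8 (0.48 [0.12, 0.85]). GRIA4 and GRIK2 were higher at D26 in these cells too (1.33 [0.32, 2.52] and 1.23 [0.46, 2.08]), and had ratios of 1.43 [-0.01, 3.36] and 1.14 [0.24, 2.18] in DLX-positive GNRH1-low cells. GRIN2B was higher at D26 in each class, going from 2.33 to 17.2 in GNRH1-high cells (6 UMIs at D24), from 4.52 to 46.3 in DLX-positive GNRH1-low cells (5 UMIs) and from 0.0460 to 1.39 in TBR1/PPP1R17 cells (2 UMIs). GRIK3, at 2.04 over the whole library, had ratios of 0.88 [0.18, 1.64] in GNRH1-high and 1.07 [0.13, 2.17] in DLX-positive GNRH1-low cells. In TBR1/PPP1R17 cells GRIK3 had 2 UMIs at D24 and 3 at D26, too few for a ratio. GRIA3 stayed within 2-fold in all 3 classes, between 5.54 and 9.94 CPM. The median log2 ratio of all genes measured was 0.38 in GNRH1-high, 0.41 in DLX-positive GNRH1-low and 0.30 in TBR1/PPP1R17 cells. In GNRH1-high cells the intervals of GRIA1, GRIA3, GRIA4 and GRIK3 hold that median, and those of GRIA2, GRIK2 and GRIN2B lie above it. In DLX-positive GNRH1-low cells the intervals of GRIA1 (0.61 [0.17, 1.09]), GRIA3, GRIA4, GRIK2 and GRIK3 hold it, and those of GRIA2 and GRIN2B lie above. In TBR1/PPP1R17 cells those of GRIN1 and GRIK1 hold it, and the other measured intervals lie above.

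**Figure D4:**
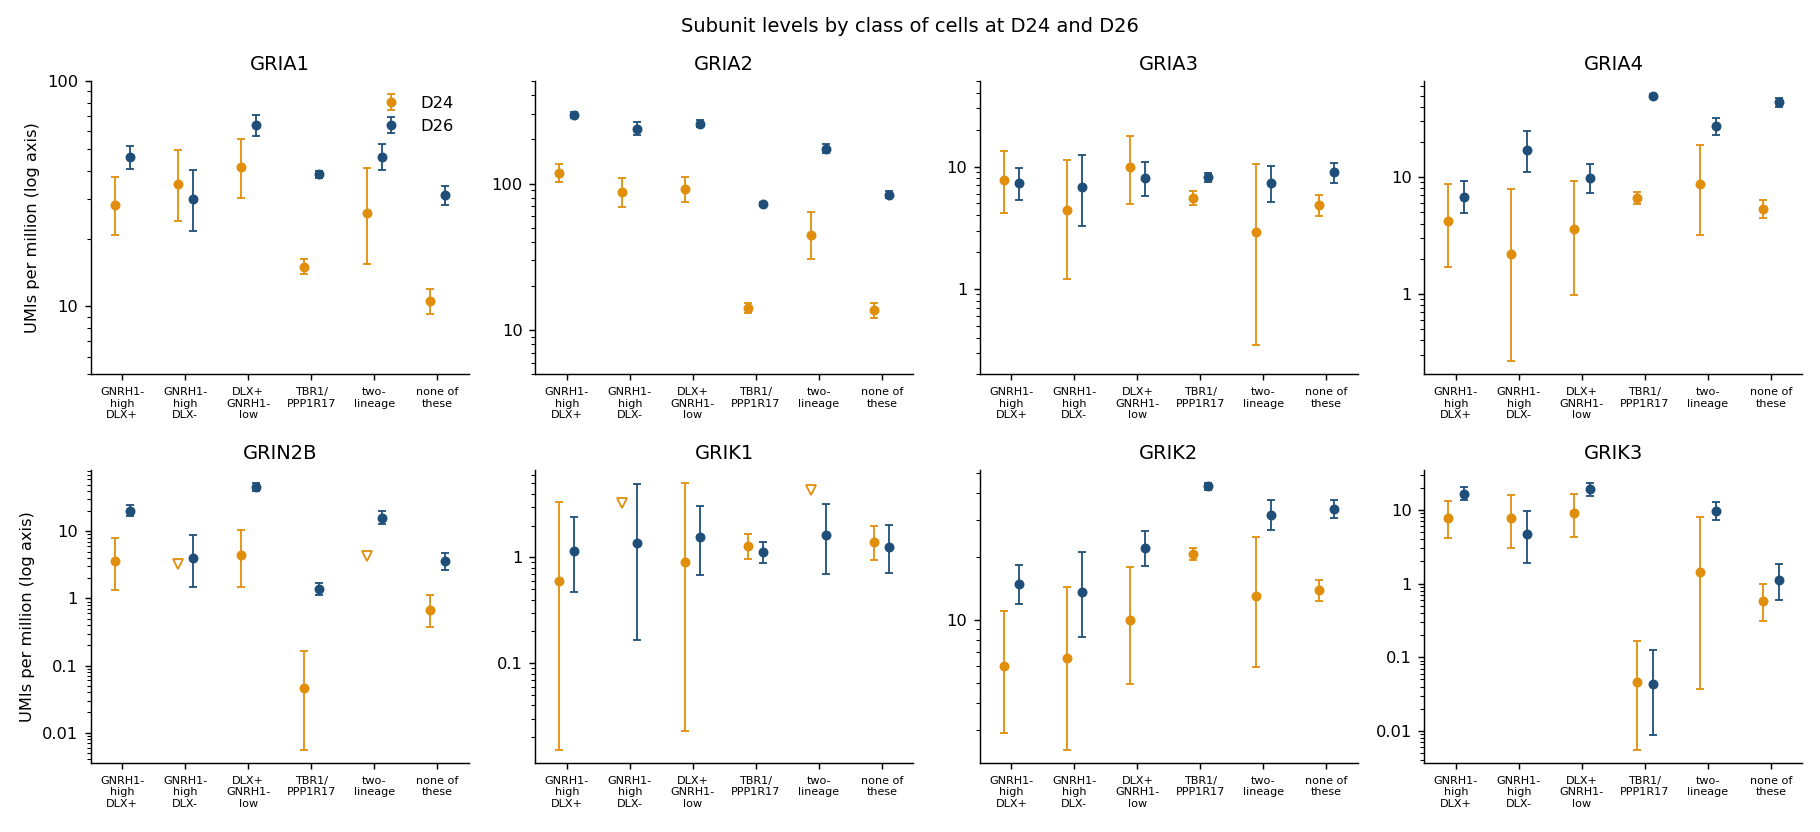
CPM (log axes, each with its own range) of 8 subunits in the 6 classes of cells at D24 (orange) and D26 (blue). Points are pooled levels, bars exact Poisson 95% intervals, and open triangles the level of 3 UMIs where a class had 0. GRIK3 lies at 14.3 CPM in all GNRH1-high cells together and 0.0434 in TBR1/PPP1R17 cells at D26, while GRIA4 and GRIK2 are higher in the latter, and GRIA3 is at 6.80 to 8.97 in every class of that day.

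The GNRH1-high and the TBR1/PPP1R17 neurons of the same library differed in the level of some subunits. At D24, 6 members were measured, 2 of them at least 2-fold higher in GNRH1-high cells and 2 lower, against 3.28% and 12.2% of 13709 genes. One of the lower, GRIK1, had 1 UMI in GNRH1-high cells and was measured through its 56 UMIs in the other class, and at 3 UMIs (1.17 against 1.29 CPM) it would not count as lower. At D26, 9 were measured, 3 higher and 3 lower, against 4.05% and 9.69% of 14874 genes. One of the higher, GRIK3, had 3 UMIs in TBR1/PPP1R17 cells and was measured through its 107 UMIs in GNRH1-high cells. One of the lower, GRIN1, had 2 UMIs against 45, and at 3 UMIs (0.400 against 0.650 CPM) it would not count either. The medians were -0.34 at D24 and 0.09 at D26, and those of all genes -0.19 and -0.15. The limits here are that each day is 1 library, and that GNRH1, used to choose the cells, stood at 35218 CPM in GNRH1-high cells at D26.

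GRIA2 was the main AMPA subunit of the GNRH1-high cells on both days. At D24 it stood at 108 CPM [95.3, 121] against 14.1 [13.04, 15.29] in TBR1/PPP1R17 cells (log2 2.93 [2.72, 3.14]). At D26 it stood at 281 [269, 293] against 72.7 [70.7, 74.7] (1.95 [1.88, 2.03]), and 83.2% of GNRH1-high cells (689 of 828) had a GRIA2 UMI against 42.7% of TBR1/PPP1R17 cells (3184 of 7462). After thinning each cell to 1500 UMIs these shares were 34.1% (30.8 to 37.4) and 10.1% (9.38 to 10.8). GRIA2 gave 82.7% of the AMPA UMIs of GNRH1-high cells at D26 and 43.0% of those of TBR1/PPP1R17 cells.

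GRIA1 was higher in GNRH1-high cells at D24 (30.7 against 15.0 CPM, 1.03 [0.68, 1.37]) but not at D26 (42.8 against 38.6, 0.15 [-0.02, 0.32]). The D24 value sits at the 2-fold limit and was 0.55 [-0.55, 1.48] after thinning to 1500 UMIs, 0.99 and 0.81 at GNRH1 limits of 1000 and 10000 CPM, and 0.97 with two-lineage cells kept, all short of it. GRIA4 was lower in them at D26, at 8.80 against 49.6 CPM (-2.49 [-2.87, -2.14], and -1.83 with two-lineage cells kept). At D24 it was at 3.50 against 6.66 with 9 UMIs, and its interval reached 0 (-0.93 [-2.07, 0.01]). GRIA4 gave 29.3% of the AMPA UMIs of TBR1/PPP1R17 cells at D26 and 2.59% of those of GNRH1-high cells. GRIA3 did not differ between the classes beyond its intervals on either day (0.25 [-0.55, 0.96] and -0.18 [-0.61, 0.23]).

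The kainate genes divided the classes further. GRIK3, a subunit of low glutamate affinity, had 107 UMIs (14.3 CPM [11.7, 17.2]) in GNRH1-high cells and 3 UMIs in 7462 TBR1/PPP1R17 cells (0.0434 [0.00894, 0.127]) at D26, a log2 ratio of 8.36 [6.78, 10.66] that ran from 7.64 to 9.75 over the 9 alternatives that measured it. A GRIK3 UMI was found in 11.4% of the former and 0.0402% of the latter, at median depths of 9319 and 8654 UMIs. At D24 the counts were 20 and 2 UMIs (7.77 and 0.0460 CPM), under the limit for a ratio. In the same TBR1/PPP1R17 cells GNRH1 was at 74.1 CPM. GRIK2 ran the other way on both days: 6.21 against 20.6 CPM at D24 (-1.73 [-2.54, -1.02]) and 14.5 against 43.1 at D26 (-1.57 [-1.86, -1.29]). After thinning to 1500 UMIs these ratios were -0.94 [-2.58, 0.31], short of 2-fold, and -2.32. GRIK2 gave 97.4% of the kainate UMIs of TBR1/PPP1R17 cells at D26, while GRIK2 and GRIK3 gave 48.4% and 47.6% in GNRH1-high cells. GRIK1 was at 1.20 and 1.13 CPM at D26. At D24 it counted as lower on 1 UMI against 56 (-1.73 [-7.06, 0.81]).

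Of the 3 NMDA members, GRIN2B was the one that set the classes apart, while GRIN3A, an NMDA gene of the wider list below, went the other way at D26. At D26 GRIN2B stood at 17.2 CPM [14.4, 20.4] in GNRH1-high cells and 1.39 [1.12, 1.69] in TBR1/PPP1R17 cells (3.63 [3.24, 4.03]). A UMI of it was found in 12.1% of the former and 1.15% of the latter. At D24 it had 6 and 2 UMIs. GRIN1 had 2 UMIs in GNRH1-high cells and 45 in TBR1/PPP1R17 cells at D26 (0.267 and 0.650 CPM, -1.29 [-4.38, 0.65]), so its count as lower rests on 2 UMIs and its interval holds 0. The ratio was -0.52 at a GNRH1 limit of 1000 CPM and -0.73 with no filter on cells, both short of 2-fold. GRIN2A had 1 UMI in 828 GNRH1-high cells.

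DLX-positive cells without high GNRH1 shared most of this pattern. Set against the same TBR1/PPP1R17 cells, 2 of 6 measured members were higher and 1 lower at D24 (background 8.85% and 10.4% of 13653 genes), and 3 of 9 higher and 1 lower at D26 (4.83% and 8.37% of 14822 genes). GRIA2 was at 91.3 CPM at D24 and 256 at D26 (2.69 and 1.81). GRIK3 was at 18.9 at D26 with 97 UMIs (8.77 [7.18, 11.07]) and GRIN2B at 46.3 with 237 UMIs (5.06 [4.71, 5.42]). GRIK3 was measured through these 97 UMIs, as TBR1/PPP1R17 cells held 3. GRIA4 was at 9.76 (-2.34 [-2.78, -1.94]). GRIK2 was at 9.94 at D24 (-1.05 [-2.06, -0.20], and -0.67 with two-lineage cells kept) and 21.9 at D26 (-0.98 [-1.27, -0.71], just short of 2-fold). GRIA1 was higher at D24 (41.6 CPM, 1.47 [1.01, 1.90]) and within 2-fold at D26 (63.6 CPM, 0.72 [0.55, 0.89]). This comparison shares its TBR1/PPP1R17 cells with the one before.

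The direct comparison of DLX-positive cells with and without high GNRH1 left few differences past 2-fold, and few members could be measured at D24. At D24, 2 members were measured and 0 were past 2-fold in either direction, against 1.73% and 1.53% of 6808 genes higher and lower. At D26, 7 were measured, with 0 higher and 1 lower, against 0.581% and 1.56% of 11017 genes. The 1 was GRIN2B, at 20.4 CPM [17.0, 24.3] with high GNRH1 and 46.3 [40.6, 52.6] without (-1.18 [-1.51, -0.86]). A GRIN2B UMI was found in 14.9% and 26.1% of these cells, and in 3.93% and 7.11% after thinning to 1500 UMIs. GRIA1 (-0.47 [-0.71, -0.23]), GRIK2 (-0.57 [-0.98, -0.15]) and GRIA2 (0.19 [0.09, 0.30]) differed beyond their counting intervals by less than 2-fold. GRIA3, GRIA4 and GRIK3 did not. The median log2 ratio of the measured members was -0.09 at D24 and -0.47 at D26, and that of all genes 0.00 and -0.04. The DLX-positive GNRH1-low cells of D26 also held MKI67 at 6.25 and TOP2A at 17.2 CPM against 0.133 and 0.533 in all GNRH1-high cells, and those of D24 held COL3A1 at 9.94 and LUM at 3.61 against 0 in GNRH1-high cells. Without every cell that had a UMI of any of these 4 genes the GRIN2B ratio was again -1.18. Cells without such a UMI can still express these genes, and the part of such cells in the ratio was not tested. Thinning to 1500 UMIs (-0.94 [-1.74, -0.17]), a GNRH1 limit of 1000 CPM (-0.92) and keeping two-lineage cells each took the GRIN2B ratio short of 2-fold. In each of these settings 0 members were called. A limit of 10000 CPM gave -1.57.

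The level of GRIN2B was then read over 5 ranges of GNRH1 among the DLX-positive cells of D26, a split chosen after the data were seen. It was at 48.2 CPM in 351 cells below 300 CPM of GNRH1, 43.4 in 240 cells between 300 and 3000, 40.7 in 140 cells between 3000 and 10000, 15.9 in 209 cells between 10000 and 30000 and 14.8 in 287 cells above. The first 3 intervals overlap each other and the last pair overlaps, while the last pair lies below the first 3 (the highest upper bound of the pair is 22.7 and the lowest lower bound of the first 3 is 30.2). GRIA1 was at 59.4, 69.9, 63.5, 48.2 and 37.1 over the same ranges. GRIA2 was lowest in the first range (230) and between 276 and 310 in the others. GNRH1-high cells that were DLX-negative had 4.08 CPM of GRIN2B (6 UMIs), 4.76 of GRIK3 (7 UMIs) and 17.0 of GRIA4 at D26, against 20.4, 16.6 and 6.80 in those that were DLX-positive, and GRIA2 at 237 against 292.

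**Figure D5:**
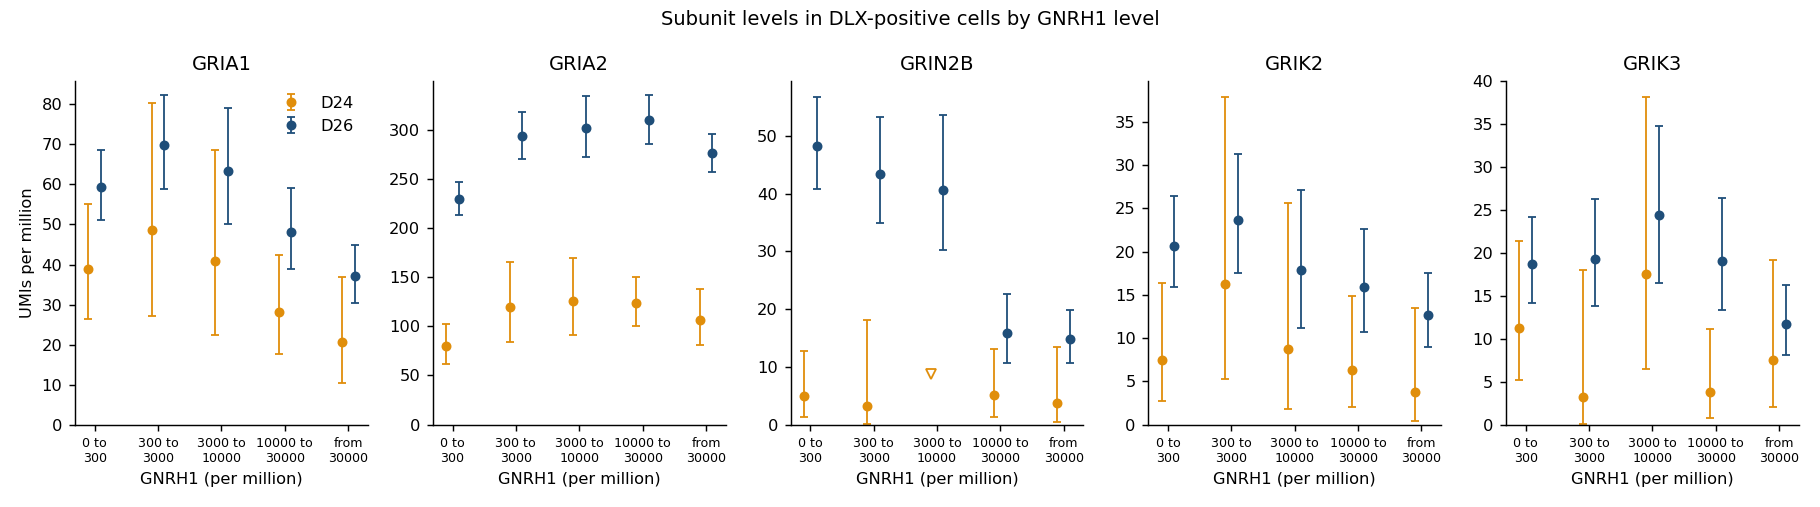
CPM of GRIA1, GRIA2, GRIN2B, GRIK2 and GRIK3 in DLX-positive cells grouped by GNRH1 CPM, at D24 (orange) and D26 (blue), on linear axes from 0. Bars are exact Poisson 95% intervals, and the open triangle is the level of 3 UMIs where a group had 0. At D26 GRIN2B is at 40.7 to 48.2 below 10000 CPM of GNRH1 and at 14.8 to 15.9 above, and GRIA2 is at 230 to 310 throughout.

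At D26 two-lineage cells held GRIA2 at 173, GRIA4 at 27.4, GRIN2B at 16.02 and GRIK3 at 9.73 CPM, at a median depth of 17104 UMIs against 9319 in GNRH1-high and 8654 in TBR1/PPP1R17 cells. No doublet caller was run, and whether they are 2 cells in a droplet was not tested.

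The wider list held 53 other genes of glutamate receptors: other ionotropic and metabotropic receptors, auxiliary subunits, scaffolds and editing enzymes. Between GNRH1-high and TBR1/PPP1R17 cells 2 of 41 measured were at least 2-fold higher and 12 lower at D24, and 6 of 47 higher and 11 lower at D26, against the background shares given above for the same comparisons. Among those that reached 10 CPM in a class, genes called lower on both days included GRM7 (3.87 against 36.0 at D26) and GRM8 (0.533 against 15.7, and 0 UMIs in GNRH1-high cells at D24), presynaptic metabotropic receptors, SHISA6 (3.60 against 11.5), an AMPA auxiliary protein, the scaffolds DLG1 (13.5 against 33.4) and DLG2 (22.1 against 105), and the synaptic adhesion gene NLGN1 (2.40 against 12.9).

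Other auxiliary subunits, partners and scaffolds were named whatever their values. CNIH2, which slows AMPA channels, was at 404 and 422 CPM in GNRH1-high and TBR1/PPP1R17 cells at D26, and CACNG8 at 60.1 and 84.5. CACNG2, the stargazin gene, was at 7.47 and 3.64 (1.04 [0.59, 1.46]). The kainate auxiliaries NETO2 and NETO1 were at 54.1 and 41.9, and at 2.00 and 0.838. DLG4, the main scaffold of excitatory synapses, was at 51.1 and 62.5, and GRIK5 at 24.9 and 25.2. GRIN2D was at 2.40 and 3.86, and GRIN3A at 0.400 (3 UMIs) and 3.18. ADARB1, the enzyme that edits the GRIA2 Q/R codon, was at 6.53 and 8.96, and ADARB2, its catalytically inactive relative, at 1.07 and 2.23.

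Over 18 points (the 6 libraries up to D22 and 6 classes at each of D24 and D26), the genes whose log2 level followed a member most closely were named among 8714 that reached 20 CPM. The points share libraries and depth, and the correlations are descriptions. GRIA2 was nearest to AKR1C2 (near-identical to other AKR1C genes, so its count is uncertain), LY6H and FGF14, each with Pearson's r of 0.99. GRIA1 was nearest to LY6H, MIR7-3HG and NRXN2 (0.97 to 0.98). GRIK2 was nearest to TMEM200A, PPP1R21 and POU2F2 (0.98 each) and GRIA4 to RABGAP1L, SPTBN1 and CADM2 (0.90 to 0.93). GRIN2B was nearest to SPOCK1, GABRB2 and GNAL (0.83 to 0.84). Among the members, GRIA1 and GRIA2 were the closest pair (0.97) and GRIA1 and GRIN2A the most opposed (-0.56). The other 5 members did not reach 20 CPM at any point.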

How the data were processed

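The authors sequenced 10x Genomics 3′ libraries and deposited UMI counts per gene and cell from Cell Ranger, 6.1.2 for the 5 tagged D0 to D10 conditions and 3.1.0 for D22 to D26 per the file headers, on GRCh38. Cells passed the study's limits on UMIs, genes, mitochondrial share and complexity. At D0 its complexity limit would leave 1 of 1292 cells and was not used. 12 rows of sample tags were dropped. Counts were summed over cells of a group and given as counts per 1000000 UMIs (CPM; Python 3.11.15, numpy 2.4.6, scipy 1.17.1). Ratios needed 30 UMIs over both groups, zeros entered at 3 UMIs, and 2-fold was the call. Intervals are exact 95% Poisson or binomial. With 1 library per condition there was no test. The ratios and thinning were tested on simulated data. Members, classes and gene lists were chosen with earlier results of these data known; other genes were named where they reached 10 CPM and were past 2-fold the same way at D24 and D26 in GNRH1-high over TBR1/PPP1R17 cells, or from a set list. No doublet caller was run. Alternatives changed the cell filter, depth, weighting and class limits. Gene positions are from GENCODE 44. Some items are not reported here.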

Additional observations from a re-analysis of the deposited data

How the results depend on the processing

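Under the alternatives, 492 of 520 ratios of single members moved by less than their counting interval, 28 moved further and 0 called ratios changed sign, and 157 of 180 counts of members past 2-fold stayed within 1.5 times. The other 23 counts follow, with the reported count in parentheses. Thinning and the limit of 100 UMIs leave fewer UMIs or members to measure, and for the other settings the cause was not tested. For XAV939 at D5, the higher count was 0 (1) and the lower 0 (1) after thinning to 1500 UMIs, with 1 member measured, and the lower 0 without the 5% of cells with the most UMIs and as a mean over cells. For XAV939 at D10, the higher count was 1 (2), GRIK1, with a stricter filter on cells and without the top 5%, 1 after thinning, where GRIA3 (1.10) was the only member measured and neither of the reported pair was, and 0 with at least 100 UMIs, and the lower count was 0 (2) after thinning and 1 with at least 100 UMIs. From D22 to D24, thinning gave 4 higher (7). For GNRH1-high over TBR1/PPP1R17 cells at D24, the higher count was 1 (2) after thinning, at GNRH1 limits of 1000 and 10000 CPM and with two-lineage cells kept, and the lower 1 (2) with at least 100 UMIs (GRIK2) and 1 after thinning, where it was GRIA3 (-1.11 [-6.45, 1.46]) and neither of the reported pair. At D26 the lower count was 2 (3), within 1.5 times, after thinning, with at least 100 UMIs, with no filter on cells and at the 1000 CPM limit, and GRIN1 was the member lost in each. For DLX-positive GNRH1-low over TBR1/PPP1R17 cells, the lower count was 2 (1) at D24 without the top 5%, and 2 (1) at D26 as a mean over cells and at the 10000 CPM limit. For DLX-positive cells with over those without high GNRH1 at D26, the lower count was 0 (1) after thinning, at the 1000 CPM limit and with two-lineage cells kept. Of ratios not called in the report, that GRIA3 ratio was 0.25 before thinning, and GRIA2 in the DLX-positive comparison at D24 went from 0.38 to -0.22 after it. Others also changed sign in some setting (main ratio in parentheses). For XAV939, GRIK2 reached 0.22 at D5 (-0.07) and 0.17 at D10 (-0.20). For DLX-positive GNRH1-low over TBR1/PPP1R17 cells, GRIK1 reached 0.10 at D24 (-0.51). In the same comparison at D26, GRIN1 reached -0.04 (0.26) and GRIA3 0.21 (-0.02). GRIA3 reached 0.23 (-0.13) in the DLX-positive comparison at D26. Leaving out cells with a UMI of MKI67, TOP2A, COL3A1 or LUM, chosen after the data were seen, moved no count by over 1.5 times. GRIK1 had 0 UMIs in GNRH1-high cells at D24 with the 10000 CPM limit. It entered the counts there at 3 UMIs, and no ratio of its own is given. No paired analysis was possible because each condition is 1 library. Depth limits GRIN1, GRIN2A and GRIK1 in the GNRH1-high and DLX-positive classes, and GRIN2B and GRIK3 at D24, where 0 to 20 UMIs stood behind a class.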
